A study of Mus musculus with 18 samples.

Results

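The mRNAs of 10 genes linked to fibroblast growth factor (FGF) signalling were followed in differentiating mouse cells. These genes encode the ligands Fgf4, Fgf8 and Fgf15 and the receptors Fgfr1 and Fgfr2. The others encode the feedback inhibitors Spry2, Spry4 and Dusp6, and the ETS transcription factors Etv4 and Etv5. The 10 genes were taken by name from a matrix of raw RNA-seq counts with 25239 genes. All 10 were present in it, and all 10 passed a filter on low counts that kept 16582 genes.

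The matrix held 18 libraries, 2 in each of 9 conditions, which the study calls biological replicates. Nothing states that they came from separately cultured cells, so the p-values measure the spread between these libraries. An exact permutation test of 2 against 2 cannot go below p = 0.333, and the adjusted p-values below come from edgeR's quasi-likelihood test over all genes. Wild-type E14Tg2a embryonic stem cells (ESCs) were compared with triple knockout (TKO) cells derived from them, in which the open reading frames of Tet1, Tet2 and Tet3 were excised by CRISPR/Cas9. The TET enzymes oxidise 5-methylcytosine in DNA. Each TKO line is a clone grown from a single cell, and the labels do not say which clone was sequenced. Cells of both genotypes were kept in 2i/LIF, a medium that contains a MEK inhibitor, and then converted over 2 days into epiblast-like cells (EpiLCs) with Activin A and basic FGF. Every condition therefore shares an earlier exposure to added FGF, but not a current one. EpiLCs were collected at the end of those 2 days, and no FGF is listed for the medium used after them. Steps from EpiLCs to aggregates thus coincide with withdrawal of added FGF, and its part in the values below was not tested. EpiLCs were then aggregated in GK15 medium, which holds a serum replacement, either with BMP4, BMP8a, SCF, EGF and LIF, the cytokines that induce primordial germ cell-like cells (PGCLCs), or without any of them. The wild-type conditions were EpiLCs, day 2 and day 6 without cytokines, and day 6 with cytokines. The TKO conditions were EpiLCs and, at day 2 and at day 6, aggregates with and without cytokines. The study states that day 6 cells of the wild-type line cultured with cytokines had been sorted by SSEA1 and CD61, whereas its sample labels call them aggregates. All other aggregates were collected whole. Neither ESCs nor day 2 wild-type aggregates that received cytokines were analysed here.

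FGF ligands bind receptor tyrosine kinases, which pass the signal through the adaptor Frs2 and RAS to the kinases MEK and ERK. Active ERK raises the transcription of Etv4 and Etv5 and of its own inhibitors: Sprouty proteins act upstream of RAS or RAF, and Dusp6 removes phosphate from ERK in the cytoplasm. ERK itself was not measured here, and which ligands activated it was not tested. The medium with cytokines also held SCF and EGF. In the mouse epiblast Fgf4 is the main autocrine ligand and moves cells out of naive pluripotency, while Fgf8 and Fgf15 mark, among other places, the primitive streak and the early neural tube.

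Library totals ran from 11286050 to 41257861 counts, with a median of 16305168. The ribosomal locus Rn45s took 16.2% to 47.6% of them. Tet3 was lower in TKO than in wild-type cells in all 4 matched conditions, with log2 fold changes from -1.73 to -4.23, whereas Tet1 did not pass the test at day 2 or day 6 without cytokines (log2 fold changes -0.30 and -0.12). Tet2 did not pass it in EpiLCs (-1.17, adjusted p = 0.141) or at day 2 without cytokines (0.61, adjusted p = 0.301). These are counts over whole genes, so they also hold exons outside the deleted reading frames. Markers set the conditions apart: the summed normalised count of 6 neural genes (Sox1, Pax6, Neurog1, Neurog2, Nes and Tubb3) was 32990.5 and 39032.5 in wild-type cells without cytokines at day 6 and no higher than 2629 in any TKO library. The summed count of 7 naive genes (Nanog, Esrrb, Klf2, Klf4, Tbx3, Tfcp2l1 and Zfp42) was 367 and 131 in the same wild-type libraries and between 20562 and 44106 in the TKO libraries of days 2 and 6. In bulk RNA, fewer expressing cells and less RNA per cell cannot be told apart, and the part of cell composition in the values below was not tested.

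RefSeq promoters of the build GRCm38.p6, 250 bases before and 50 bases after the annotated start, were at hand for 5 of the 10 genes, of which Fgfr2 is left out because its entry starts at no transcript start of the GENCODE annotation. They are shown for Fgf4, Dusp6 and Etv5, 3 genes that fell together in wild-type cells without cytokines, because TET enzymes act on CpG dinucleotides, which are in capitals. The sequences read 5′ to 3′ along the gene. Fgf4 lies at chr7:144861136-144861435 on the plus strand, Dusp6 at chr10:99262981-99263280 on the plus strand, and the upstream start of Etv5 at chr16:22439521-22439820 on the minus strand.
Fgf4: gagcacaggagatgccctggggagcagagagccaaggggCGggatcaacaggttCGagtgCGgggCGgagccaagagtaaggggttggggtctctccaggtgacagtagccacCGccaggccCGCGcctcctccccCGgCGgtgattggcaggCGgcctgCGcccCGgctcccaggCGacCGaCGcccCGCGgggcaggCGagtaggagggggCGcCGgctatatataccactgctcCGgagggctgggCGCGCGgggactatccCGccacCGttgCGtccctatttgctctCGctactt
Dusp6: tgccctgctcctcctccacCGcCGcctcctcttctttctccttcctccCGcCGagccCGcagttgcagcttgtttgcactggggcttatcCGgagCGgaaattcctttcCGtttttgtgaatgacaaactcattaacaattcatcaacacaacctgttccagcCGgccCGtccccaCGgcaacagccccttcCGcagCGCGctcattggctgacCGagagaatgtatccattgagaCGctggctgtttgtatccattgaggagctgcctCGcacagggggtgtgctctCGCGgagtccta
Etv5: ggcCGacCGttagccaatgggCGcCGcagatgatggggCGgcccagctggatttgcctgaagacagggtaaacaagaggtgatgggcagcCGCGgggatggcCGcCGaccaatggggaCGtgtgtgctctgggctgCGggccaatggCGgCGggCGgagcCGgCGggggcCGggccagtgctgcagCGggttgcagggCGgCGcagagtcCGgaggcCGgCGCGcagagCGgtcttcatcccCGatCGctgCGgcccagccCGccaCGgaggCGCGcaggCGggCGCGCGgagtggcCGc
The Fgf4 window held 28 CpGs, that of Dusp6 held 19 and that of the upstream Etv5 start held 37. Over 32851 promoters of 300 bases the median was 7 and the upper quartile 20, so Dusp6 lay below that quartile. Spry2 also held 28. A second Etv5 entry, at chr16:22438319-22438618 and not shown, held 19. The Fgfr2 entry that was left out held 4. The exact string CCGGAA, a form of the ETS site, was searched on both strands. It was found in 14.9% of all promoters and, among those of Fgf4, Spry2, Dusp6 and Etv5, only in that of Spry2. Shorter or other forms of the ETS site were not searched, so these windows may hold them. Methylation was not measured in these libraries.

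Levels are given as normalised counts, which are raw counts divided by a size factor for each library. Per kilobase of exon, Etv5 and Fgf4 were the 2 most abundant of the 10 mRNAs in wild-type EpiLCs, at 1271 and 874 normalised counts per kb (means of 2 libraries). In wild-type cells without cytokines at day 6 the receptors Fgfr2 and Fgfr1 led, at 576 and 507 per kb. Etv5 was then at 33.2 per kb and Fgf4, the lowest, at 1.95. In TKO cells under the same conditions Fgf4 and Etv5 again led the list, at 886 and 837 per kb.

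Fgf4 (chr7:144861386-144865245 in GRCm38.p6, plus strand) fell to 26 and 0 raw counts in wild-type cells without cytokines by day 6 and did not fall past the test in TKO cells. Wild-type EpiLCs held 2684 and 2610.4 normalised counts, which fell to 77.0 and 54.4 at day 2 (log2 fold change -5.29 ± 0.39 SE, adjusted p = 3.37e-07). At day 6 without cytokines replicate 1 held 11.8, from 26 raw counts, and replicate 2 had no count, which allows up to 3.47 (a further fold change of -3.07 ± 0.47, adjusted p = 0.000123, and at least 18.9-fold lower in replicate 2 than at day 2). The libraries of these 3 wild-type conditions did not overlap. With cytokines, day 6 wild-type cells held 995 and 1409, and so were below EpiLCs (-1.09 ± 0.31, adjusted p = 0.0119) but far above the cells without cytokines (7.27 ± 0.46, adjusted p = 6.67e-09, and at least 346-fold above replicate 2 of the latter).

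All 10 TKO libraries held between 2536 and 4774 normalised counts of Fgf4. TKO EpiLCs had 4055 and 4774, which did not pass the test against wild-type EpiLCs (0.77 ± 0.31, adjusted p = 0.131) although the libraries did not overlap. At day 2 without cytokines TKO cells held 2852 and 2759, 42.0-fold more than wild-type cells (5.39 ± 0.39, adjusted p = 2.19e-07). Day 6 TKO cells without cytokines, at 2726 and 2641, differed by 8.41 ± 0.47 on the log2 scale (adjusted p = 3.60e-09). Against the wild-type library without a count alone, set at its floor of 3 raw counts, the difference was at least 773-fold. A fit without replicate 1 of that group compares with no count at all, and only this bound then applies. TKO cells with cytokines held 2536 and 2797 at day 2 and 4559 and 3320.1 at day 6, the latter 1.71 ± 0.32 above wild-type PGCLCs (adjusted p = 0.00198). Neither time nor cytokines moved Fgf4 past the test within the TKO line: the lowest adjusted p, 0.140, was that of the difference between day 2 with cytokines and EpiLCs (-0.72 ± 0.31).

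Fgf8 (chr19:45736491-45742941, minus strand) was the scarcest of the ligands per kb in wild-type EpiLCs, and its low counts left wide errors. It stood at 70.7 and 90.6 normalised counts in wild-type EpiLCs, 261 and 203 at day 2 without cytokines, and 1.36 and 62.5 at day 6 without cytokines. The first step did not pass the test (1.56, adjusted p = 0.200), although the libraries did not overlap. The fall between the 2 days passed the test (-3.04 ± 0.99, adjusted p = 0.0231), but its size rested on the day 6 replicates: it was -7.35 without replicate 2 and -1.93 without replicate 1, and without day 2 replicate 1 the adjusted p was 0.0740. With cytokines at day 6 only 4.17 and 6.43 remained in wild-type cells, below EpiLCs (-3.86 ± 1.11, adjusted p = 0.0123), a call that held without EpiLC replicate 1 and was lost without any 1 of the other 3 libraries, at adjusted p from 0.0536 to 0.0848. TKO cells held 20.8 and 8.80 as EpiLCs and 98.6 and 132 at day 2 without cytokines, a difference that did not pass the test (adjusted p = 0.0607). Day 2 TKO libraries with cytokines disagreed, at 69.1 and 7.45. At day 6 TKO cells held 61.4 and 56.8 without cytokines and 5.04 and 3.44 with them, 3 raw counts in each of the latter, which is at least 13.9-fold lower at the floor of 3 counts (adjusted p of the fitted difference 0.0978). Both genotypes thus had their lowest mean with cytokines at day 6.

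Fgf15 (chr7:144896532-144900953, plus strand), an FGF encoded close to Fgf4 and known from the early nervous system and the gut, had its own course. Wild-type EpiLCs held 758 and 830.5 normalised counts, day 2 cells without cytokines 1351 and 688, and day 6 cells without cytokines 84.8 and 973. The last 2 libraries lay far apart, and the step to day 2 did not pass the test (0.40, adjusted p = 0.657). Wild-type PGCLCs held only 18.8 and 30.2, less than EpiLCs (-4.97 ± 0.79, adjusted p = 0.000186) and less than day 6 cells without cytokines (-4.36 ± 0.77, adjusted p = 0.000189, and -1.73 without replicate 2 of the latter). TKO cells held 358 and 431 as EpiLCs, 183 and 162 at day 2 without cytokines, 45.3 and 36.0 at day 2 with cytokines, and 265 and 237 or 68.9 and 93.0 at day 6 without or with them. At day 2 without cytokines Fgf15 was lower in TKO than in wild-type cells (-2.59 ± 0.68, adjusted p = 0.00930), the reverse of Fgf4. That call was lost without wild-type replicate 1 (-2.05) and without either TKO replicate (-2.69 and -2.50), at adjusted p from 0.0622 to 0.0713. Fgf15 also fell between TKO EpiLCs and day 2 TKO cells with cytokines (-3.27 ± 0.76, adjusted p = 0.00932), and without replicate 1 or 2 of the latter the adjusted p was 0.0717 or 0.0811.

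**Figure D1:**
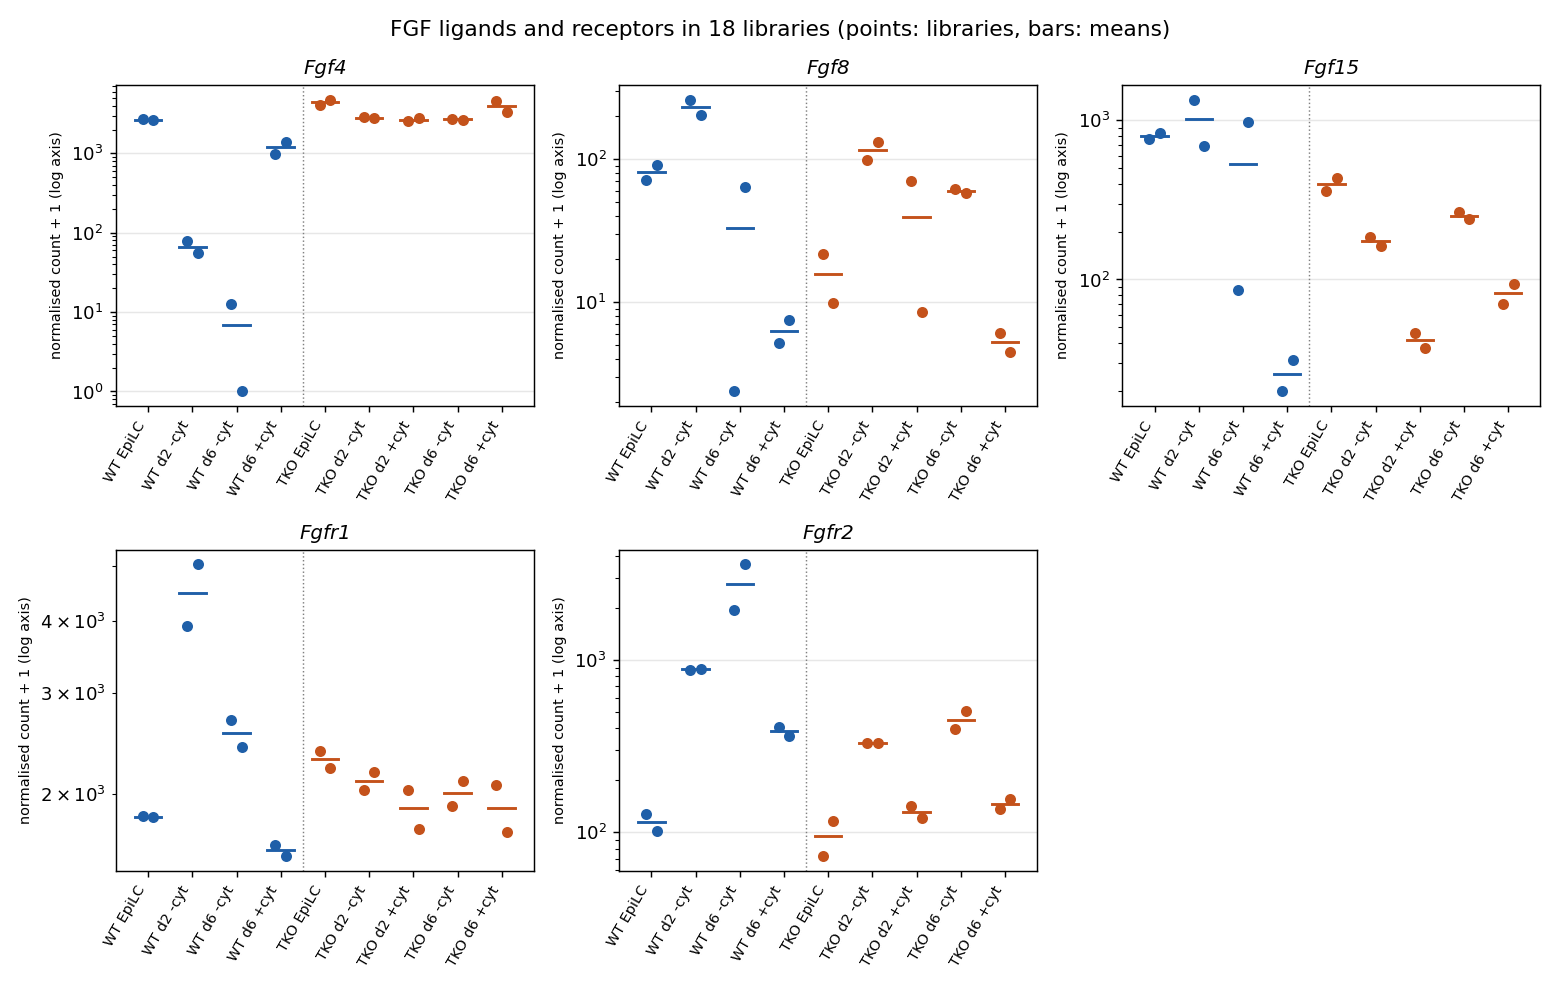
Normalised counts plus 1, on a log axis, of 3 FGF ligands and 2 receptors in each of 18 libraries; points are libraries, bars are means of 2, blue is wild-type and orange TKO, and -cyt and +cyt mark culture without and with cytokines. Fgf4 falls to 11.8 and 0 in wild-type cells without cytokines at day 6 and stays between 2536 and 4774 in all 10 TKO libraries, while Fgfr2 is highest in those same wild-type libraries at 1948 and 3582.

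Fgfr1 (chr8:25518759-25575718, plus strand), a receptor well known from the epiblast, was abundant in every library, and its 18 values lay between 1553 and 5024. In wild-type cells without cytokines it rose from 1827 and 1818 normalised counts in EpiLCs to 3919 and 5024 at day 2 (1.35 ± 0.17, adjusted p = 2.86e-05). It fell to 2686 and 2411 at day 6 (-0.86 ± 0.16, adjusted p = 0.000713), and stood at 1627 and 1553 in day 6 cells with cytokines, below those without (-0.64 ± 0.16, adjusted p = 0.00341). The 10 TKO libraries stayed between 1712 and 2370.0, with no called difference between TKO conditions. Day 2 without cytokines was the only matched condition in which the difference between genotypes passed the test, with 2027 and 2178 in TKO cells (-1.12 ± 0.16, adjusted p = 0.000121). It did not pass in EpiLCs (0.36) or at day 6 without (-0.33) or with cytokines (0.24), although the libraries of the genotypes overlapped in none of them.

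Fgfr2 (chr7:130162451-130266808, minus strand), a receptor with roles in extraembryonic and neural tissue, moved over a 29.6-fold range of condition means, against 2.81-fold for Fgfr1. It started low in EpiLCs of both genotypes, at 127 and 101 normalised counts in wild-type and 71.4 and 115 in TKO libraries. Wild-type cells without cytokines reached 872 and 885 at day 2 (3.02 ± 0.29, adjusted p = 3.02e-06) and 1948 and 3582 at day 6 (a further 1.61 ± 0.26, adjusted p = 0.000191). TKO cells without cytokines also rose, to 327 and 329 at day 2 (1.80 ± 0.28, adjusted p = 0.000770), and held 394 and 504 at day 6. Fgfr2 was lower in TKO than in wild-type cells at day 2 without cytokines (-1.45 ± 0.26, adjusted p = 0.000729), at day 6 without cytokines (-2.60 ± 0.27, adjusted p = 1.47e-06) and at day 6 with cytokines (-1.41 ± 0.28, adjusted p = 0.00266).

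Cytokines went with less Fgfr2 in both genotypes. At day 6 wild-type cells with cytokines held 409 and 359 normalised counts (-2.81 ± 0.27 against those without, adjusted p = 5.00e-07). TKO cells with cytokines held 141 and 120 at day 2 (-1.31 ± 0.28, adjusted p = 0.0172) and 134 and 154 at day 6 (-1.62 ± 0.28, adjusted p = 0.00482). Fgfr2 was the only one of the 10 genes to pass the test between TKO cells with and without cytokines, on either day, against 4.52% of all genes tested at day 2 and 5.61% at day 6. The day 2 call was lost without any 1 of its 4 libraries, at adjusted p from 0.0941 to 0.111, and the day 6 call without TKO replicate 2 lacking cytokines (adjusted p = 0.0528) or replicate 1 with cytokines (adjusted p = 0.0619).

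Set against each other per kb of exon, Fgfr1 exceeded Fgfr2 by 13.8 and 17.3 times in wild-type EpiLCs and by 31.7 and 18.4 times in TKO EpiLCs. Without cytokines the ratio was 4.29 and 5.42 in wild-type cells at day 2, and at day 6 it was 1.32 in replicate 1 and 0.643 in replicate 2. TKO cells without cytokines had ratios of 5.92 and 6.32 at day 2 and 4.61 and 3.99 at day 6. With cytokines, TKO cells kept ratios from 10.6 to 14.7, while wild-type PGCLCs stood at 3.80 and 4.13. Fgfr2 was therefore as abundant as Fgfr1 only in wild-type cells without cytokines at day 6.

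**Figure D2:**
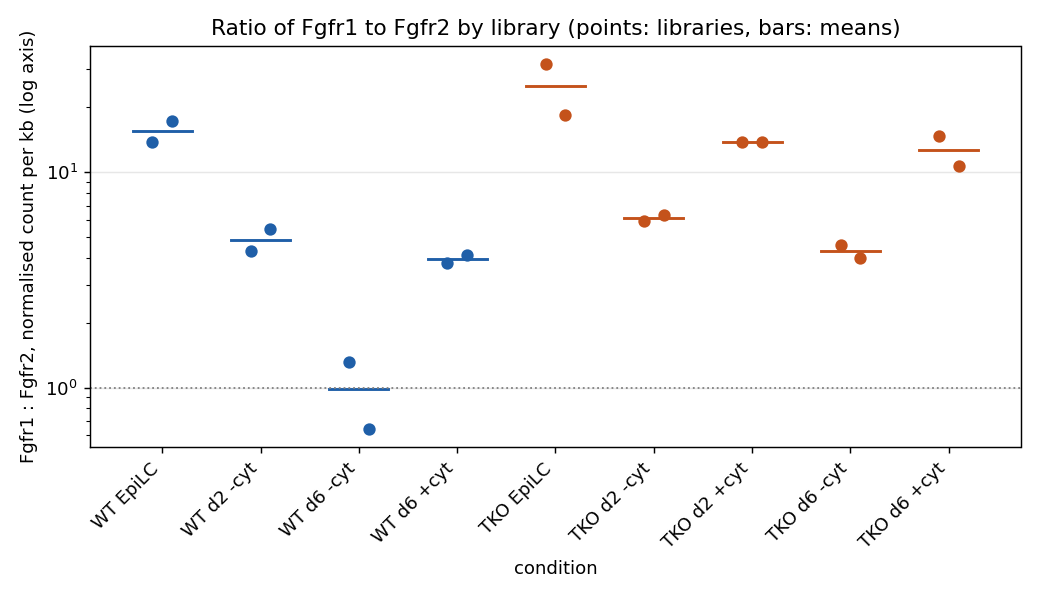
Ratio of Fgfr1 to Fgfr2 in normalised counts per kb of exon, on a log axis, by condition; points are the 18 libraries, bars are means of 2 and the dotted line marks equal levels. The ratio is lowest, at 1.32 and 0.643, in wild-type cells without cytokines at day 6 and is 10.6 or more in EpiLCs of both genotypes and in TKO cells with cytokines.

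Spry2 (chr14:105891947-105896819, minus strand) and Spry4 (chr18:38586247-38601347, minus strand), inhibitors of the same family, moved in opposite directions at the first step in wild-type cells. Spry2 rose from 522 and 468 normalised counts in EpiLCs to 2384 and 1299.8 at day 2 without cytokines (1.94 ± 0.31, adjusted p = 0.000220), and fell to 381 and 513 at day 6 (-2.09 ± 0.31, adjusted p = 8.15e-05). Over the same steps Spry4 went from 904 and 622 to 265 and 248 (-1.51 ± 0.39, adjusted p = 0.00781) and then to 22.2 and 82.2 (-2.48 ± 0.44, adjusted p = 0.000426). The day 2 call of Spry4 was lost without EpiLC replicate 1 (-1.25, adjusted p = 0.0718) or day 2 replicate 1 (-1.54, adjusted p = 0.0508), and under library size alone (-0.92, adjusted p = 0.0610). Wild-type PGCLCs held 1302 and 964 of Spry2 and 1244 and 1004 of Spry4, both above day 6 cells without cytokines, by 1.39 ± 0.30 (adjusted p = 0.00102) and 4.61 ± 0.46 (adjusted p = 6.77e-07).

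In TKO cells no condition had a mean of either Sprouty gene below that of wild-type EpiLCs. Spry2 was at 1195 and 817 in TKO EpiLCs, at 1790.3 and 1876 at day 2 and 1565 and 1405 at day 6 without cytokines, and at 3233 and 1776 at day 2 and 1451 and 1319 at day 6 with them. The rise from EpiLCs to day 2 with cytokines passed the test (1.32 ± 0.30, adjusted p = 0.00792), but not without day 2 replicate 1 (0.83, adjusted p = 0.137) or EpiLC replicate 2 (1.08, adjusted p = 0.0896). Spry4 was at 1889 and 1657 in TKO EpiLCs, 952 and 853 at day 2 and 730.1 and 834 at day 6 without cytokines, and 2518 and 1496 at day 2 and 1801 and 1076 at day 6 with them. Against wild-type cells without cytokines, Spry4 was higher in TKO cells at day 2 (1.78 ± 0.39, adjusted p = 0.00300) and at day 6 (4.06 ± 0.46, adjusted p = 3.05e-06), and Spry2 at day 6 only (1.76 ± 0.30, adjusted p = 0.000184). The wild-type and TKO libraries of Spry2 overlapped at day 2.

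Dusp6 (chr10:99263231-99267489, plus strand), the ERK phosphatase, was at 1878 and 2095 normalised counts in wild-type EpiLCs, 1285 and 1022 at day 2 and 341 and 610.3 at day 6 without cytokines. The step to day 6 passed the test (-1.33 ± 0.24, adjusted p = 0.000522), as did the smaller step to day 2 (-0.74 ± 0.24, adjusted p = 0.0259), which was lost without any 1 of its 4 libraries at log2 fold changes from -0.60 to -0.89 and adjusted p from 0.0541 to 0.151. Scaling by library size alone took that step to -0.15 (adjusted p = 0.665). Wild-type PGCLCs held 1352 and 1233, above the cells without cytokines (1.49 ± 0.24, adjusted p = 9.22e-05). TKO EpiLCs had the highest values, 3519.8 and 3162. TKO cells then held 1747 and 1878 at day 2 and 1299.7 and 1333 at day 6 without cytokines, and 2765 and 2001 at day 2 and 1001 and 740.5 at day 6 with them. Dusp6 fell at 2 steps within the TKO line, from EpiLCs to day 2 without cytokines (-0.89 ± 0.24, adjusted p = 0.0185) and from day 2 to day 6 with them (-1.45 ± 0.24, adjusted p = 0.00258). The former call was lost without any 1 of its 4 libraries, at log2 fold changes from -0.83 to -0.97 and adjusted p from 0.0540 to 0.125, and under library size alone at -0.39 (adjusted p = 0.272). The latter was lost without day 2 replicate 1 (-1.21, adjusted p = 0.0526). Between genotypes Dusp6 was higher in TKO cells at day 6 without cytokines (1.497 ± 0.24, adjusted p = 0.000114), while at day 2 it missed the threshold (0.62 ± 0.24, adjusted p = 0.0571).

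Etv4 (chr11:101769747-101785310, minus strand) and Etv5 (chr16:22381313-22439570, minus strand), ETS activators of the PEA3 group that are transcribed in response to ERK, fell at both steps in wild-type cells without cytokines. Etv5 went from 5075 and 5031 normalised counts in EpiLCs to 1162 and 1290.4 at day 2 (-1.99 ± 0.42, adjusted p = 0.00221) and to 42.6 and 221 at day 6 (-3.34 ± 0.46, adjusted p = 5.05e-05). Etv4 went from 1010.5 and 809.9 to 146 and 133 (-2.65 ± 0.50, adjusted p = 0.000906) and to 10.9 and 71.8 (-1.998 ± 0.55, adjusted p = 0.00963, lost without day 6 replicate 1 at -1.001 with adjusted p = 0.0660). Wild-type PGCLCs held 6665 and 5852 of Etv5 and 795 and 537 of Etv4. These were 5.68 ± 0.51 (adjusted p = 2.13e-07) and 4.25 ± 0.56 (adjusted p = 1.21e-05) above day 6 cells without cytokines, and neither gene passed the test against EpiLCs.

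All TKO libraries held more Etv5 than any wild-type aggregate without cytokines. It was at 5870.0 and 7036 in TKO EpiLCs, 5470.3 and 5470.5 at day 2 and 3021 and 3629.7 at day 6 without cytokines, and 5161 and 4354 at day 2 and 2236 and 2256 at day 6 with them. Genotypes differed in Etv5 at day 2 without cytokines (2.12 ± 0.43, adjusted p = 0.00152) and at day 6 without cytokines (4.75 ± 0.49, adjusted p = 1.27e-06). In the presence of cytokines at day 6 the difference had the other sign, with less Etv5 in TKO cells (-1.48 ± 0.42, adjusted p = 0.0222), a call that was lost without any 1 of its 4 libraries at fold changes from -1.39 to -1.58 and adjusted p from 0.0609 to 0.117. Etv4 was at 1344 and 1024 in TKO EpiLCs, 443 and 624 at day 2 and 392 and 414 at day 6 without cytokines, and 1208 and 716 at day 2 and 748 and 479 at day 6 with them. It was higher than in wild-type cells at day 2 (1.90 ± 0.49, adjusted p = 0.00825) and at day 6 without cytokines (3.502 ± 0.56, adjusted p = 8.88e-05), the day 2 call being lost without wild-type replicate 2 (1.83, adjusted p = 0.0636) or TKO replicate 2 (1.64, adjusted p = 0.0605).

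**Figure D3:**
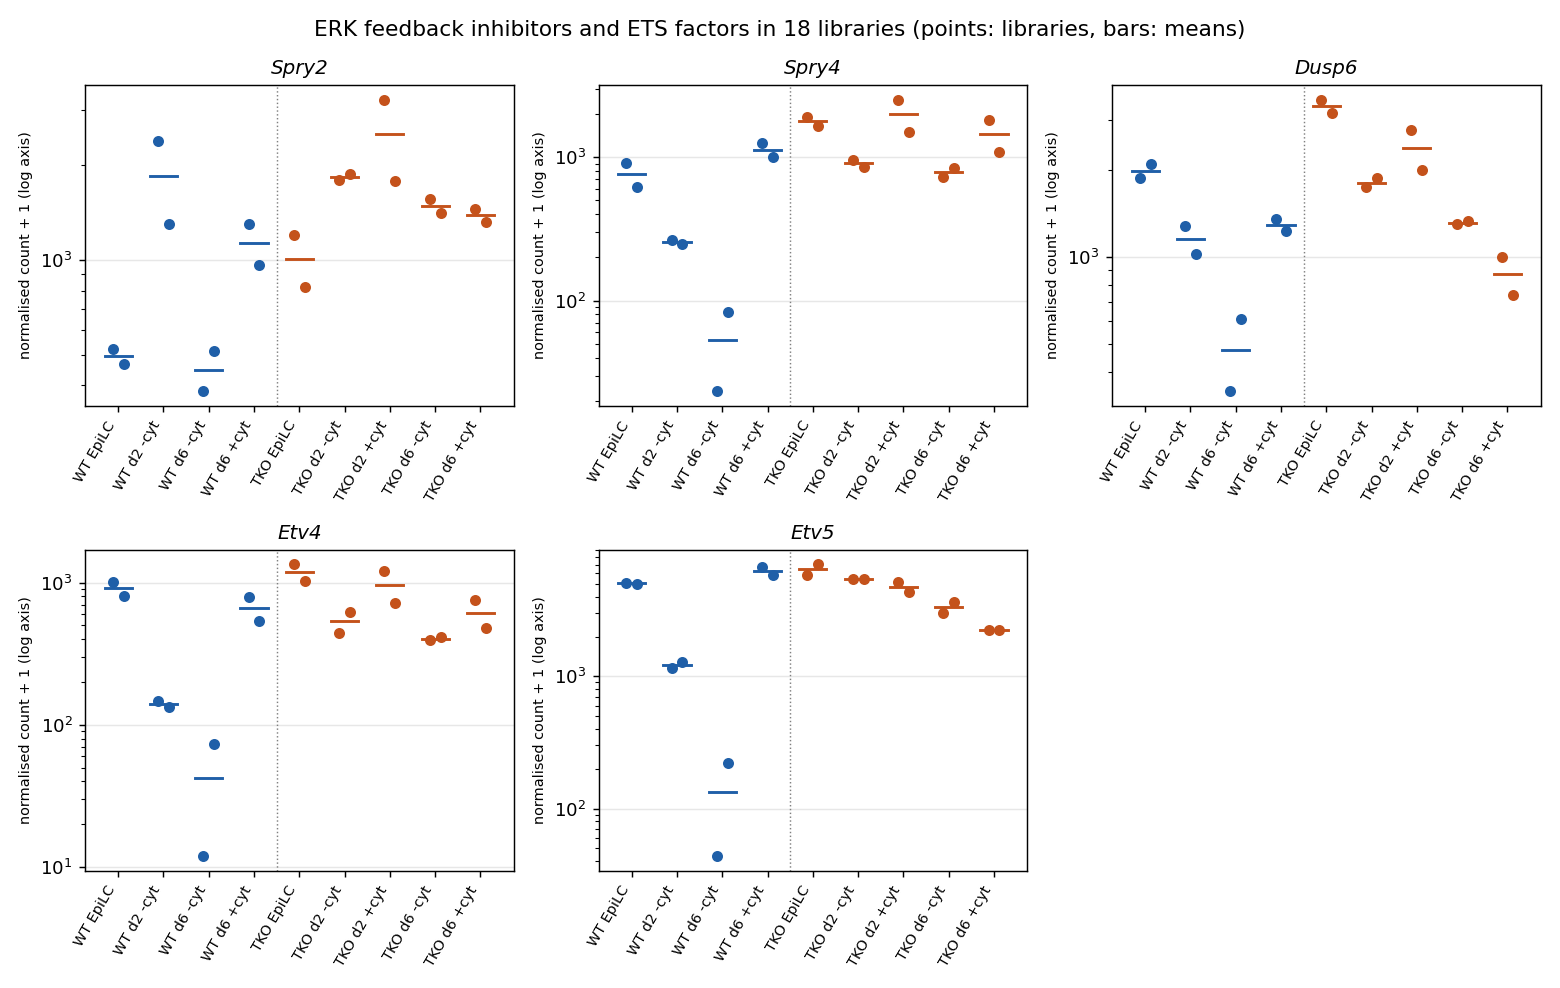
Normalised counts plus 1, on a log axis, of the feedback inhibitors Spry2, Spry4 and Dusp6 and the ETS factors Etv4 and Etv5 in each of 18 libraries; points are libraries, bars are means of 2, blue is wild-type and orange TKO. Spry4, Dusp6, Etv4 and Etv5 step down from EpiLCs to day 2 and day 6 in wild-type cells without cytokines, to 42.6 and 221 for Etv5, while TKO cells under the same conditions hold 3021 or more of Etv5.

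The 2 wild-type libraries without cytokines at day 6 differed more from each other than any other pair of replicates, with a chi-square of 156 per gene against 10.2 to 53.2 elsewhere. Replicate 2 had more Fgf8, Fgf15, Fgfr2, Spry2, Spry4, Dusp6, Etv4 and Etv5 than replicate 1, and less Fgf4 and Fgfr1. Both replicates were below every TKO library for Fgf4, Spry2, Spry4, Dusp6, Etv4 and Etv5, so the direction of these differences was the same with either library. Their sizes were not: without replicate 1 the TKO to wild-type difference at day 6 was 3.92 for Etv5, 3.26 for Spry4 and 2.50 for Etv4, and without replicate 2 it was 6.31, 5.16 and 5.22. For the cytokine difference in wild-type cells, the values without replicate 1 were 4.86 for Etv5, 3.81 for Spry4 and 3.25 for Etv4, against 7.25, 5.71 and 5.97 without replicate 2. For the step from day 2 to day 6 they were -2.52, -1.68 and -1.001 without replicate 1 and -4.90, -3.58 and -3.72 without replicate 2. Markers of neural cells did not split one way between them: the sum was larger in replicate 2, at 39032.5 against 32990.5, while Pax6 (1562 against 954) and Neurog1 (838 against 124) were higher in replicate 1. The sum of 5 midbrain-hindbrain markers was 1983 in replicate 1 and 1746 in replicate 2, and these did not split one way either. Wnt1 (4.99 and 976) and En2 (27.7 and 340) were higher in replicate 2. En1 (224 and 27.8), Pax2 (1192 and 292) and Pax5 (534 and 110) were higher in replicate 1. The replicates of TKO cells with cytokines at day 2 also differed. There replicate 1 had more Fgf8, Spry2, Spry4, Dusp6, Etv4 and Etv5 than replicate 2, and the sum of 8 primitive streak and mesoderm markers was 1335 against 375. Whether these markers have a part in the differences was not tested.

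Counted over the whole set, the members moved most in the comparisons that involved wild-type cells without cytokines, where many other genes moved as well. An adjusted p below 0.05 was taken as the call. Many of these comparisons share libraries, so their counts are not independent of each other. From EpiLCs to day 2, 8 of 10 were called in wild-type cells (3 higher and 5 lower), against 34.4% of all genes tested, and 2 of 10 in TKO cells (1 higher and 1 lower), against 18.7%. At this step 8 of the 10 in wild-type cells and 7 in TKO cells had an unadjusted p of edgeR below 0.05, so the 2 counts of calls overstate the contrast. From day 2 to day 6 without cytokines, 9 of 10 were called in wild-type cells (1 higher and 8 lower) against 39.5%, and 19% as lower. The median log2 fold change of the 10 at this step was -2.04, beside 0.01 over all genes tested. With only those 4 libraries in the model the calls of Fgf4, Fgf8, Fgfr1, Spry4, Dusp6 and Etv4 were lost, at adjusted p from 0.0538 to 0.193. In TKO cells none of the 10 was called by edgeR at the same step, against 0.476% of all genes, and none had an unadjusted p under 0.05 or was called by DESeq2. From day 2 to day 6 with cytokines 1 of 10 was called in TKO cells (lower) against 6%, and from EpiLCs to day 2 with cytokines 2 of 10 (1 higher and 1 lower) against 14.3%.

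Wild-type PGCLCs had less of all 3 ligands than EpiLCs, whereas 4 of the 5 feedback and ETS genes did not pass the test. Between them 5 of 10 were called, against 40.6% of all genes tested: Fgf4, Fgf8 and Fgf15 were lower, and Fgfr2 (1.82 ± 0.28, adjusted p = 0.000139) and Spry2 (1.24 ± 0.30, adjusted p = 0.00424) were higher. Spry4, Dusp6, Etv4 and Etv5 did not pass the test, with adjusted p from 0.0643 to 0.517. With only the compared libraries in the model 9 of 10 were called, so this split between ligands and the other genes depends on the model. The Fgf4 call was lost without EpiLC replicate 1 (-1.09) or 2 (-1.09) or without PGCLC replicate 1 (-0.87), at adjusted p from 0.0527 to 0.123, and under library size alone (-0.71, adjusted p = 0.0886). Between wild-type cells with and without cytokines at day 6, 9 of 10 were called (6 higher and 3 lower with cytokines), against 58.2%. The 6 that were higher were Fgf4 and all 5 feedback and ETS genes, and the 3 that were lower were Fgf15, Fgfr1 and Fgfr2, of which Fgfr1 was lost with only those libraries in the model (adjusted p = 0.0502). The wild-type cells given cytokines were sorted and those without were not, so sorting and cytokines cannot be told apart here, nor can sorting and genotype in the comparison of wild-type and TKO cells with cytokines. The summed count of 7 early germ cell markers (Prdm1, Prdm14, Tfap2c, Nanos3, Dppa3, Dnd1 and Kit) was 16691 and 14049 in the sorted cells and between 3579 and 7006 in the TKO libraries of days 2 and 6.

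Between genotypes, 3 of 10 were called in EpiLCs (all higher in TKO), against 10.8% of all genes tested in either direction and 7.57% as higher. They were Spry2 (1.06 ± 0.30, adjusted p = 0.0353), Spry4 (1.25 ± 0.38, adjusted p = 0.0479) and Dusp6 (0.78 ± 0.24, adjusted p = 0.0484), which are all inhibitors of the pathway. All 3 lay close to the threshold. Leaving out any 1 of the 4 libraries left at most 1 of them called, with adjusted p for Spry4 and Dusp6 from 0.113 to 0.294 and log2 fold changes from 0.68 to 1.52. Spry2 remained only without TKO replicate 2. RLE factors and the replicate block also lost Spry4 and Dusp6, at adjusted p from 0.0507 to 0.0588. Day 2 without cytokines had 7 of 10 called (4 higher and 3 lower in TKO), against 32.8%, and day 6 without cytokines 7 of 10 (6 higher and 1 lower), against 55.4%, and 28.5% as higher. Fgf4, Spry4, Etv4 and Etv5 were higher and Fgfr2 lower in TKO cells on both days. With cytokines at day 6, 3 of 10 were called (Fgf4 higher, Fgfr2 and Etv5 lower), against 18.9%.

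**Figure D4:**
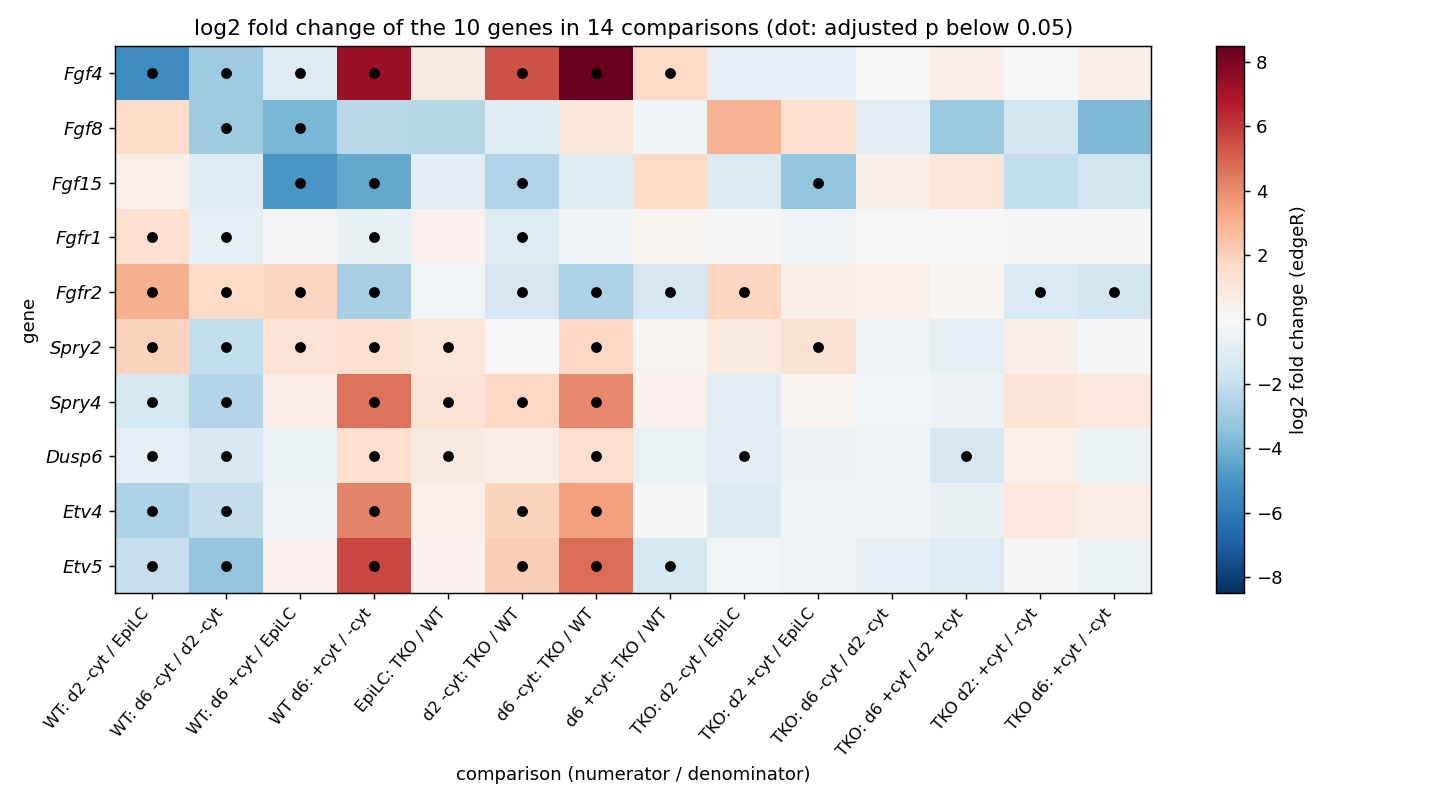
Log2 fold change of the 10 genes (rows) in 14 comparisons (columns, numerator first), from blue for lower to red for higher, with a dot where the adjusted p of edgeR is below 0.05. Dots are dense in the comparisons with wild-type cells without cytokines and sparse in the 6 comparisons within TKO cells at the right, where 7 tests carry one.

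The difference between genotypes was itself compared over time and between media. From EpiLCs to day 2 without cytokines, 2 of 10 genes changed differently in TKO and wild-type cells (1 higher and 1 lower), against 12.3% of all genes tested. Fgf4 fell less in TKO cells (an interaction of 4.62 ± 0.48 on the log2 scale, adjusted p = 3.13e-05), and Fgfr1 did not rise as it did in wild-type cells (-1.49 ± 0.23, adjusted p = 0.000768). For Etv5 (1.74 ± 0.58, adjusted p = 0.0641) and Fgfr2 (-1.21 ± 0.39, adjusted p = 0.0551) the interaction missed the threshold. The cytokine effect at day 6 differed between genotypes for 8 of 10 genes (2 higher and 6 lower), against 42.9%. It was less positive in TKO cells for Fgf4, Spry2, Spry4, Dusp6, Etv4 and Etv5, with interactions from -1.47 to -6.70. In TKO cells none of these genes passed the test between media at day 6. The TKO difference had the other sign for Spry2 (-0.09), Dusp6 (-0.58) and Etv5 (-0.55). The fall of Fgfr2 with cytokines was shallower in TKO cells by 1.19 ± 0.38 (adjusted p = 0.0191), a call lost without wild-type replicate 2 or TKO replicate 1 lacking cytokines (0.67 and 1.02) or without replicate 2 of either genotype with cytokines (1.09 and 1.08), at adjusted p from 0.0693 to 0.101, and with only those libraries in the model (adjusted p = 0.0502). That of Fgf15 (2.76 ± 1.02, adjusted p = 0.0401) fell to 0.12 without wild-type replicate 2 lacking cytokines (adjusted p = 0.858), and of the other 7 libraries the call held only without wild-type replicate 1 lacking cytokines (3.66), while adjusted p ran from 0.0631 to 0.123 without any 1 of the rest. It was also lost under library size alone, the replicate block and a model of only those libraries, at adjusted p from 0.0522 to 0.125.

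Other genes of the pathway were read from lists of related genes. Of 15 further secreted FGF ligands 11 were tested. At day 6 without cytokines 6 of these were higher and 1 was lower in TKO than in wild-type cells, beside 55.4% of all genes tested in either direction and 28.5% as higher. Fgf5, a marker of the formative epiblast, was at 323 and 317 normalised counts in TKO cells and 3.17 and 0 in wild-type cells (7.12 ± 0.77, adjusted p = 2.23e-06, and at least 92.1-fold above the library at 0, set at 3 raw counts). Fgf1 was at 296 and 302 against a mean of 1.94 (7.02 ± 0.53, adjusted p = 5.34e-08), and Fgf17, a relative of Fgf8, was at 262 and 288 against 5.44 and 3.47 (5.83 ± 0.44, adjusted p = 4.63e-08). The median of the 11 was 2.92, beside 0.01 over all genes tested. Fgf1 was also the only gene of the 5 lists to change between day 2 and day 6 in TKO cells without cytokines (2.30 ± 0.38, adjusted p = 0.0113), a call that was lost without any 1 of its 4 libraries at log2 fold changes from 2.10 to 2.54 and adjusted p from 0.0690 to 0.311. In wild-type cells Fgf5 fell over that step (-7.88 ± 0.77, adjusted p = 1.99e-06, and at least 154-fold in the library at 0). When day 6 replicate 1 is left out only the bounds apply to Fgf5, and without replicate 2 the fitted values were 6.63 and -7.40.

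Of the other receptors and co-receptors, 4 of 5 were tested. Fgfr3, a receptor of neural progenitors and cartilage, was the one with the widest range: wild-type cells without cytokines went from a mean of 8.22 normalised counts in EpiLCs to 93.6 and 94.8 at day 2 and 4184 and 3086 at day 6. At day 6 TKO cells held 77.5 and 54.3 (-5.76 ± 0.35, adjusted p = 8.00e-09). Fgfr3, like Fgfr2, was highest in wild-type cells without cytokines at day 6. Fgfr4, which takes part in liver and muscle, was higher in TKO EpiLCs, at 108 and 123 against 22.5 and 15.6 (2.67 ± 0.41, adjusted p = 0.00118).

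In the relay from receptor to ERK, 4 of 20 genes were higher and 5 lower in TKO cells at day 6 without cytokines, below the share among all genes tested of 55.4%, and their median was 0.11, beside 0.01 over all genes. Gab1, a docking protein, was the member with the largest difference, at 2249 and 2727 in TKO and 744 and 374 normalised counts in wild-type cells (2.16 ± 0.28, adjusted p = 1.18e-05), and it differed by 2.21 ± 0.28 at day 2 (adjusted p = 3.12e-05). Among 17 other feedback and target genes, 2 were higher and 6 lower in TKO cells at day 2 without cytokines. Their median log2 fold change was -0.59, and 32.8% of all genes tested were called. From EpiLCs to that day, 5 were higher and 2 lower in wild-type cells, against 34.4% of all genes. In TKO cells 1 was higher and 7 lower over this step, against 18.7%. At day 6 without cytokines, 6 of the 17 were higher and 5 lower in TKO than in wild-type cells, beside the same 55.4%. Dusp9, a further ERK phosphatase, matched Fgf4 in direction, with 4089.7 and 6369.6 in TKO and 136 and 291 in wild-type cells (4.66 ± 0.39, adjusted p = 1.63e-07), and 3976 and 4431 against 272 and 278 at day 2 (3.90 ± 0.38, adjusted p = 2.93e-06). Dusp4, a nuclear phosphatase of ERK, went the other way at day 6, with 303 and 233 in TKO and 2791 and 1424 in wild-type cells (-2.95 ± 0.47, adjusted p = 8.20e-05), and also with cytokines (-2.70 ± 0.46, adjusted p = 0.00108).

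Genes whose levels ran most like those of a member were sought by Pearson's r of log2(normalised count + 1) over the 18 libraries. The values of r are a description, since the libraries of a condition share genotype, day and medium. Fgf4 ran with Gm13034 (r = 0.988), Tdgf1 (0.985), which encodes a co-receptor of Nodal, and Zfp980 (0.985). Fgfr2 ran with Efnb3 (0.964), the neural transcription factor Pax6 (0.963) and Ift81 (0.954). For Etv5 the leading genes were Zwilch (0.979), Dbf4 (0.972) and Anxa11 (0.969), and for Spry4 they were Chchd10 (0.981), Rps6ka1 (0.971) and Pkp3 (0.968). The other ligands had lower maxima, 0.906 for Fgf8 with Ror1 and 0.887 for Fgf15 with Ptpn13. Fgfr1 ran with Phox2a (0.927), Spry2 with S100a11 (0.906), Dusp6 with Lbr (0.943) and Etv4 with Rae1 (0.980).

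Ranked by mean normalised count over the 9 conditions, Fgf4 ran from TKO EpiLCs through the other TKO conditions to wild-type EpiLCs, wild-type PGCLCs, and wild-type cells without cytokines at day 2 and day 6. Its last 4 conditions did not overlap, while 3 of the 8 neighbouring pairs did, among them day 2 TKO cells with cytokines and wild-type EpiLCs. Fgfr2 ran almost the other way, from wild-type cells without cytokines at day 6 and day 2 down to EpiLCs of both genotypes, which overlapped. Etv5 ended with the same pair as Fgf4, wild-type cells without cytokines at day 2 and day 6, and so did Spry4 and Etv4. For Spry2 wild-type cells at day 2 without cytokines ranked second and those at day 6 last. Between 2 and 5 of the 8 neighbouring pairs overlapped for each gene, so neighbouring ranks are often not separate.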

How the data were processed

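RNA was sequenced from 18 libraries of wild-type and TKO mouse cells in 9 conditions. The authors deposited raw counts per gene; the submitters' processing notes name Trim Galore 0.5.0, cutadapt 1.16, STAR 2.7.1a, Subread 1.5.2 and DESeq2, and strandedness of the counting is not given in the sources used here. Rows without any gene count (33) were left out. Groups were taken from the sample labels. Counts were tested with edgeR 4.0.16 (limma 3.58.1, R 4.3.3): TMM factors, filterByExpr, 1 model of 9 group means over all 18 libraries, quasi-likelihood F tests and Benjamini-Hochberg adjustment over 16582 genes. Standard errors are approximate: the size of each log2 fold change was divided by the root of its F statistic. Normalised counts use DESeq2 1.42.0 size factors. Depth ran from 11286050 to 41257861 counts. A floor of 3 counts was used only for the bounds given as "at least", where it replaced counts of 3 or fewer. The fits and the normalised counts kept the counts as they were. The scripts were tested on simulated data with 1 dispersion for all genes and changes set between genotypes at day 2 without cytokines. The test recovered 27.3% of the 2-fold changes and 100% of the 4-fold ones. A difference that did not pass the test is therefore not evidence of equal levels.

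The 10 genes and all gene and marker lists were chosen with earlier results of these data known. A gene of the neural marker list is not reported here, and the summed level leaves it out. Besides the 10, up to 3 called genes with the largest absolute log2 fold change were named per list and comparison, and the 3 genes (mean normalised count of at least 50) most correlated with each member were sought, of which the first or all are named. Promoter sequences came from RefSeq (GRCm38.p6) and matched 5 of the 10 members. Replicate numbers were not used to pair the samples, since the labels do not say what they stand for. Over 36 pairs of groups, the correlation of deviations ran from -0.156 to 0.182 with 7 above 0.1. Such values cannot decide whether samples of the same number were handled together. The alternatives were other scalings (RLE factors, library size alone, Rn45s left out), other filters, DESeq2, a replicate block, a model fitted to just the compared libraries, and leaving out each library.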

Additional observations from a re-analysis of the deposited data

Results flagged for a closer look

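For 10 results the effect of time or of cytokines differed between wild-type and TKO cells by edgeR's test of the interaction itself, after adjustment over all genes tested. From EpiLCs to day 2 without cytokines the difference between genotypes (TKO minus wild-type, log2) was 4.62 ± 0.48 for Fgf4 (adjusted p = 3.13e-05) and -1.49 ± 0.23 for Fgfr1 (adjusted p = 0.000768).

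For the cytokine effect at day 6, which in wild-type cells also separates sorted from whole aggregates, the difference was -6.70 ± 0.55 for Fgf4 (adjusted p = 3.14e-07) and -6.23 ± 0.64 for Etv5 (adjusted p = 2.37e-06). The size for Fgf4 rests on 26 raw counts in replicate 1 of wild-type cells lacking cytokines: without that library the group has no count, and the fitted -12.69 is no bound. It was -3.71 ± 0.58 for Spry4 (adjusted p = 0.000127), -3.63 ± 0.72 for Etv4 (adjusted p = 0.000928), -2.07 ± 0.34 for Dusp6 (adjusted p = 0.000204) and -1.47 ± 0.42 for Spry2 (adjusted p = 0.0106). Without replicate 1 of wild-type cells lacking cytokines these were -5.41 for Etv5, -2.92 for Spry4 and -2.63 for Etv4, and without replicate 2 they were -7.80, -4.81 and -5.36. It had the opposite sign for Fgf15, at 2.76 ± 1.02 (adjusted p = 0.0401), and for Fgfr2, at 1.19 ± 0.38 (adjusted p = 0.0191). Without replicate 2 of the same wild-type group the values were 0.12 for Fgf15 and 0.67 for Fgfr2, and neither call held. The cause of these differences was not tested.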

How the results depend on the processing

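The 94 differences of single genes described above were refitted under every other setting, and none that was called changed direction. Under another scaling, filter, test or model 698 refits kept direction and side of the threshold, 19 lost the call and 35 gained one. With a library left out 358 kept both, 64 lost the call and 1 gained one. Fgf15, not called from EpiLCs to day 2 without cytokines in wild-type cells, ran from -0.14 (without day 2 replicate 1) to 0.80 (without replicate 2). The number of members called moved by more than 1.5 times in these cases. With only the libraries compared in the model it was 3 rather than 9 between day 2 and day 6 without cytokines in wild-type cells, 9 rather than 5 between PGCLCs and EpiLCs, 5 rather than 3 between genotypes at day 6 with cytokines, and 6 rather than 2 for genotype by time. Between genotypes in EpiLCs (3 called) it was 1 with RLE factors, 5 with library size alone, 5 with no filter and 6 with only those libraries. From EpiLCs to day 2 without cytokines in TKO cells (2 called) it was 4 with DESeq2, 6 with no filter and 8 with only those libraries; from day 2 to day 6 in TKO cells it was 3 rather than 0 without cytokines (only those libraries), and 4 (no filter) or 2 (only those libraries) rather than 1 with them. For cytokines in TKO cells (1 called on either day) it was 2 with DESeq2, 3 with library size alone, 3 with no filter and 4 with only those libraries at day 2, and 2, 5, 3 and 6 at day 6. For genotype by time (2 called) DESeq2 gave 4 and no filter 6. Library size alone shifted the median of all genes by up to 0.589 on the log2 scale. The cause of these changes was not tested.

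With a library left out, members called ran from 3 to 4 between wild-type PGCLCs and EpiLCs, 0 to 1 between genotypes in EpiLCs, from 0 to 2 from TKO EpiLCs to day 2 with cytokines (1 throughout without them), 0 to 2 from day 2 to day 6 with cytokines, 0 to 1 for cytokines in TKO cells at day 6 (0 throughout at day 2), and 2 to 3 for genotype by time. By their labels, samples of different conditions share only a replicate number. With the replicate block, 1 member rather than 3 was called between genotypes in EpiLCs, and the count stayed within 1.5 times of the reported one in every other comparison. With 2 libraries per condition, differences near the threshold, such as those in EpiLCs, depend on single libraries, and low counts limit Fgf8.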
